A study of Mus musculus with 2 samples.

Results

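The genes described here are 40 neighbours of Pa2g4 on distal mouse chromosome 10. Pa2g4 encodes Ebp1 and carries the gene trap of the Ebp1 knock out mice. The neighbours were chosen by their place on the chromosome and not by their values, to ask whether the trap or the strain DNA linked to it altered the genes beside it. Of the 40, 35 had at least 1 probe set annotated to that symbol alone, out of 18193 genes with such a probe set on the arrays. Counted with Pa2g4, the stretch from Hsd17b6 to Bloc1s1 holds 48 annotated protein-coding genes, and the other 7 are named below.

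Total RNA was taken from passage 2 fibroblasts (MEFs) cultured from embryos of day 12.5, and 1 array was hybridized for wild type MEFs and 1 for Ebp1 knock out MEFs. The wild type MEFs carry no trap. The knock out MEFs are Ebp1-/-, with a retroviral trap in intron 2 of both copies of Pa2g4, and descend from 1 clone of 129/SvEvBrd embryonic stem cells that was put into C57BL/6 albino blastocysts. The line was kept on a mixed C57BL/6 and 129SvEvBrd background, and which strain's DNA surrounded Pa2g4 in each culture is not given in the sources. An effect of the trap, of linked strain DNA and of the individual culture cannot be told apart. With 1 array per genotype there is no spread between replicates, so no error, interval or p-value is given for any value.

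A gene trap interrupts a gene by offering the splicing machinery an acceptor site and a polyadenylation signal inside an intron. This type of vector also carries a promoter of its own, with a splice donor that joins its transcript to the exons downstream of it. Because every knock out animal inherits the trap together with the stretch of stem cell chromosome around it, genes next to the trapped gene are a usual control for effects that do not come from loss of the protein. The stretch around Pa2g4 is dense with housekeeping genes and also holds genes of single tissues. The gene next to Pa2g4 upstream is Erbb3, the receptor gene after which Ebp1 is named, and further downstream lies Rnf41, which encodes a ubiquitin ligase known to act on ErbB3.

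The sequences below are shown because they lie at the starts of Pa2g4 and of its neighbours. They come from RefSeq on GRCm38.p6, are written 5′ to 3′ on the strand of the named gene, and end 1 base before its annotated start unless stated otherwise. Pa2g4 (chr10:128565935-128566034, minus strand) starts upstream of the trapped intron, so these bases precede the trap in the direction of transcription. Zc3h10 (chr10:128547747-128547846, minus strand) is the first of the 40 genes met downstream on the same strand.
Pa2g4: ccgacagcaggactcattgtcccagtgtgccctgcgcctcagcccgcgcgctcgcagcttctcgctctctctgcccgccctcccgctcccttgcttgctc
Zc3h10: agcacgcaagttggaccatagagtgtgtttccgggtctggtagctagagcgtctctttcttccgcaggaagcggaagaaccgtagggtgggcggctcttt

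Sarnp and Ormdl2 are transcribed away from each other, and 134 bases lie between their annotated starts. This was the only such divergent pair with up to 1000 bases between the starts among the genes of the stretch for which RefSeq promoter windows were at hand. The whole gap is shown on the strand of Sarnp (chr10:128821630-128821763, plus strand).
Sarnp/Ormdl2: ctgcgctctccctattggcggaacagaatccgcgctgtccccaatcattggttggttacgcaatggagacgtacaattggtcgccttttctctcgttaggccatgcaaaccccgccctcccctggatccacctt

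Ebp1 is known as a corepressor at promoters regulated by E2F1, and the letters TTTCCCGC, TTTGGCGC and TTTCGCGC, which E2F factors are known to bind, were therefore searched on both strands from 250 bases before to 50 bases after each start. TTTCCCGC was present for 2 of 34 listed genes that had a window (5.88%), against 1.24% of 27025 genes. TTTGGCGC was found in none of the 34 (0.585% of all genes) and TTTCGCGC in none (0.374%). The 2 genes were Cdk2, with the match 132 bases before the start on the opposite strand, and Esyt1, with the match 182 bases before it. The 60 bases around each match are given with the match in capitals (Esyt1 chr10:128526016-128526075 and Cdk2 chr10:128705158-128705217, both minus strand). A match is a description of these letters and not of binding.
Esyt1: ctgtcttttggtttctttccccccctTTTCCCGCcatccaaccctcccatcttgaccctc
Cdk2: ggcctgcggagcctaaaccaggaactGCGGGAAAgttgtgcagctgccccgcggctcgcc

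The labels were checked first on Pa2g4 itself. Wild type MEFs gave 1835 intensity units and knock out MEFs 1178, a log2 ratio of -0.64, where each log2 ratio is the knock out signal divided by the wild type signal, and its 4 probe sets with at least 100 on an array lay between -0.90 and -0.33. The knock out array thus had a lower Pa2g4 signal that was not at background. By PCR the study found no Ebp1 transcript in knock out MEFs, and the source of the remaining array signal was not tested. Of all genes that reached 500, 8.1% were over 1.5-fold apart, so a difference of this size alone does not settle the labels. The cultures were also checked against markers fixed for their cell type. All 8 fibroblast markers reached 500 on at least 1 array, with summed signals of 50259 and 54600.3. Pdgfra among them had 506 and 201 (-1.33) and Thy1 had 4173 and 2784 (-0.58), and the part of the cell make-up of the cultures in the values below was not tested. Of 25 markers of other cell types 4 reached 100 and 1 reached 500, which was Epcam on the knock out array.

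On the deposited scaling none of the listed genes was over 2-fold apart between the arrays at a usable signal. Under spike-in scaling Timeless, which did not reach 500, had a log2 ratio of -1.14 when low signals were not set to 100. Of the 35 measured, 14 reached 500 intensity units on at least 1 array, the minimum used by the study. Among these 14, 0 were over 2-fold higher and 0 over 2-fold lower, where 0.758% and 1.06% of the 5014 genes that reached 500 were. At 1.5-fold the count was also 0 of 14, against 8.1% of all genes. With a minimum of 100 and lower signals set to 100, 26 genes could be compared and 0 were over 2-fold apart (1.88% of 10553 genes). At 1.5-fold 1 of the 26, Timeless, was lower (5.82% of all genes) and 0 were higher (3.71%). With shares this small, counts of 0 or 1 among 26 genes lie near the background.

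**Figure D1:**
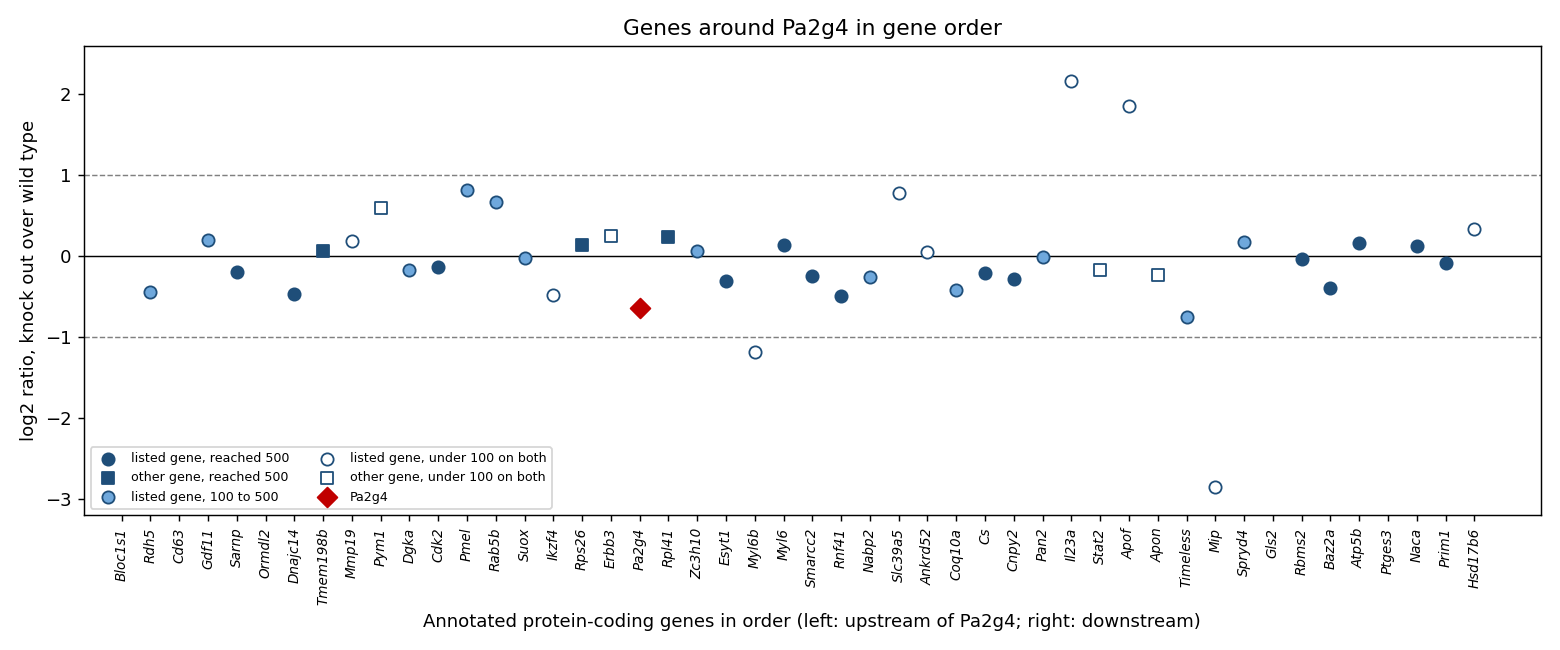
Log2 ratio, knock out divided by wild type, for the measured genes of the stretch, in the order of the annotation, with genes upstream of Pa2g4 to the left and downstream to the right. Circles are listed genes, squares other genes and the diamond Pa2g4, open symbols were under 100 on both arrays, gene names without a symbol had no probe set of their own, and dashed lines mark 2-fold. Genes with at least 100 on an array lie between the dashed lines, and the 4 symbols beyond them (Il23a, Apof, Myl6b and Mip) are open.

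The genes nearest to the trap on its downstream side lie on the same strand as Pa2g4, in the order Rpl41, Zc3h10, Esyt1, Myl6b and Myl6. Zc3h10, which encodes a CCCH zinc finger protein, gave 121 in wild type MEFs and 126 in the knock out (log2 ratio 0.06). Esyt1, which encodes a tether between the endoplasmic reticulum and the plasma membrane, had 1339 and 1081 (-0.31). These differences went in opposite directions within the first 3 genes. Myl6, the gene of an essential light chain of nonmuscle myosin, had 782 and 859 (0.14). Myl6b, which encodes a related light chain, was under 100 on both arrays (49.96 and 22.1), so its log2 ratio of -1.18 has no usable base. The ribosomal protein gene Rpl41, which sits between Pa2g4 and Zc3h10 and is not among the 40, had 7705 and 9111 (0.24). The downstream neighbours on the strand of Pa2g4 therefore showed no ratio over 1.5-fold at a signal of at least 100, and no shared direction. Spike-in scaling was the exception, where all of them were lower and Esyt1, at -0.70, was over 1.5-fold lower.

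On the upstream side the first genes are Erbb3, Rps26, Ikzf4, Suox and Rab5b. The signal of Erbb3 was under 100 on both arrays (47.8 and 56.6), as was that of Ikzf4, which encodes the lymphoid transcription factor Eos (59.3 and 42.5). Rps26, another ribosomal protein gene, had 6460.4 and 7103 (0.14). Suox, the gene of mitochondrial sulfite oxidase, was almost alike on both arrays (229.8 and 226, -0.02). Rab5b, which encodes a GTPase of early endosomes, had 81.2 and 129 (0.67), at least 1.29-fold higher when the wild type signal is set to 100, and its other probe set gave 94.1 and 93.3 (-0.01). The pair of probe sets thus gave different answers near the lower limit of usable signal.

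Whether genes close to the trap leaned lower depended on the genes and the minimum taken. Of the 10 annotated genes within 5 places of Pa2g4, 7 reached 100, with 2 lower and 5 higher in knock out MEFs and a median log2 ratio of 0.14. Within 10 places the 13 genes that reached 100 had a median of -0.02, with 7 lower and 6 higher. The listed genes farther than 10 places away had a median of -0.19 over the 15 that reached 100, with 11 lower and 4 higher. Like for like, the listed genes within 10 places had -0.13 over 11 that reached 100, with 7 lower and 4 higher. At a minimum of 500 the listed genes within 10 places had -0.24 over 5, with 4 lower. Those farther away then had -0.19 over 9, with 7 lower. On the downstream side 12 of 17 listed genes with at least 100 were lower and on the upstream side 6 of 9. Beside these counts, 58.1% of all 10553 genes that reached 100 were lower, and 55.4% of those on the rest of the chromosome. The other 7 annotated genes of the stretch, Rpl41, Erbb3, Rps26, Stat2, Apon, Pym1 and Tmem198b, held 3 that reached 500, and all 3 were higher, at log2 ratios from 0.07 to 0.24, though lower once the arrays are scaled to their spike-ins. Spike-in scaling subtracts 0.39 from every log2 ratio, and the directions given here are those on the deposited scaling.

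**Figure D2:**
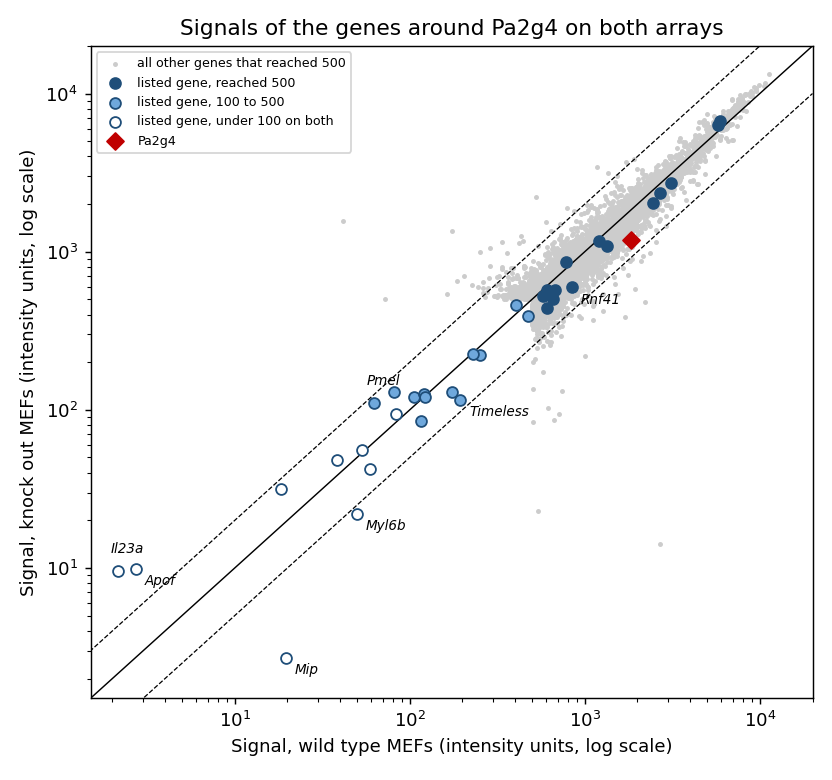
Signals in wild type (horizontal) and knock out MEFs (vertical), in intensity units on logarithmic axes, for the 35 measured genes, for Pa2g4 (diamond) and, in grey, for all other genes that reached 500. The solid line marks equal signals and the dashed lines 2-fold, and the 26 genes with at least 100 on an array lie within the dashed lines.

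Among the listed genes the differences that were seen were small and leaned to lower signals in knock out MEFs. Over the 14 genes that reached 500 the log2 ratios ran from -0.50 to 0.17, with 11 lower and 3 higher (78.6% lower, against 57.8% of all genes that reached 500 and 53.4% of those on the rest of the chromosome). Their median was -0.20, beside -0.05 over all genes and -0.01 over the rest of the chromosome. The 3 unlisted genes of the stretch that reached 500, Rpl41, Rps26 and Tmem198b, were all higher (0.07 to 0.24) on the deposited scaling. The lean of the listed genes was thus not a trait of every gene of the stretch. The next 40 genes downstream, described at the end, had a median of -0.11 over those that reached 500. The median size of the ratio without its sign was 0.20 for the 14 listed genes and 0.19 for all genes. Each of the 14 lay between the 5th and the 95th percentile of all genes that reached 500 (-0.59 and 0.45). Of the 12 listed genes from 100 to 500, 11 lay between the same percentiles of their level (-0.77 and 0.71), and Pmel, at 0.82, lay above. Pa2g4, at -0.64, lay below all 14 and below that percentile. The count of lower genes depended on the probe set taken for each gene, since 7 of 14 were lower when probe sets were averaged. The median of the 14 was then -0.044, beside 0.041 over all genes, a difference of -0.084. With the arrays scaled to their spike-ins 14 of 14 were lower, beside a median of all genes of -0.46.

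**Figure D3:**
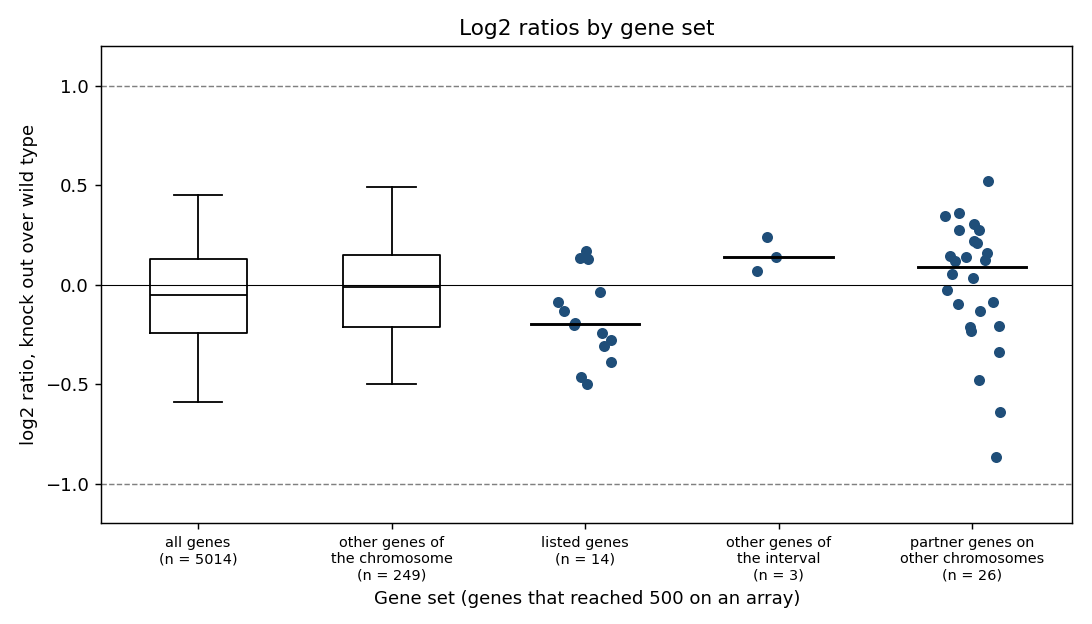
Log2 ratios of genes that reached 500 on an array. Boxes span the quartiles with whiskers at the 5th and 95th percentiles, points are single genes (spread sideways only for visibility), thick lines are medians and dashed lines mark 2-fold. The 14 listed genes lie from -0.50 to 0.17 with a median of -0.20, inside the whiskers of all genes.

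Genes of DNA replication, repair and the cell cycle were lower in each case, 4 of 4, except that Cdk2 turned higher when probe sets were averaged. Since 58.1% of all genes that reached 100 were lower, a count of 4 does not set these genes apart. Timeless, which encodes a protein that protects replication forks, had 194 in wild type MEFs and 115 in the knock out (-0.75, 1.68-fold), the largest difference among the listed genes with at least 100 on both arrays. Its second probe set gave 77.0 and 61.0 (-0.34), both low signals. Among all genes with a highest signal from 100 to 500 the 5th percentile was -0.77, so a ratio of this size was within the spread at such signals. Prim1, the gene of the catalytic subunit of primase, had 607 and 571 (-0.09), with -0.16 on its second probe set. Cdk2, which encodes the kinase that drives entry into S phase and holds the TTTCCCGC match shown above, had 577 and 526 (-0.13). Nabp2, which encodes a protein that binds single-stranded DNA in repair, had 471 and 393 (-0.26). After Timeless the 3 others differed by less than 1.2-fold.

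Genes of mitochondrial metabolism went both ways, except under spike-in scaling, where Atp5b was lower too. Atp5b, which encodes the catalytic beta subunit of ATP synthase, had 5923 and 6657 (0.17). Cs, the gene of citrate synthase, had 3110.3 and 2704 (-0.20) and -0.15 on a second probe set, while the remaining one gave 946 and 1301 (0.46). The probe sets of Cs thus disagreed in direction. Coq10a, which encodes a coenzyme Q binding protein, had 174 and 130.2 (-0.42), and Gls2, the gene of a glutaminase, had no probe set of its own.

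In chromatin and transcription both genes that could be compared were lower, where 58.1% of all genes that reached 100 were. Smarcc2, which encodes a core subunit of the SWI/SNF remodeling complex, had 679.9 and 575 (-0.24). Baz2a, which encodes a subunit of the complex that silences ribosomal RNA genes, had 659 and 502 (-0.39), and 136 and 78.7 (-0.79) on a dimmer probe set. Baz2a was lower on its remaining probe set too (64.7 and 57.7), though both of those signals were low.

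Among genes of RNA, protein synthesis and folding, 5 of the 7 measured were lower, where 58.1% of all genes that reached 100 were. Naca was higher except under spike-in scaling, and Zc3h10 was higher except under spike-in scaling and median centring. Sarnp, which encodes an mRNA export factor and shares the gap shown above with Ormdl2, had 2673 and 2337 (-0.19). Its other probe sets were higher, at 1766 and 1847 (0.06) and at 491 and 683 (0.48). Sarnp was thus lower on its brightest probe set only. Naca, which encodes a subunit of the nascent polypeptide-associated complex, had 5781 and 6316 (0.13) and was higher on its second probe set too (0.26). Rbms2, the gene of an RNA-binding protein, had 1202 and 1172 (-0.04), and Pan2, which encodes the catalytic subunit of a deadenylase, had 122 and 121 (-0.01). These last genes were nearly equal on the arrays. Dnajc14, which encodes a DnaJ chaperone of the endoplasmic reticulum, had 608 and 439.9 (-0.47), with -0.60 and -0.03 on its other probe sets. Cnpy2, an endoplasmic reticulum protein gene, had 2464 and 2031 (-0.28), with -0.37 and 0.03 on its other probe sets with at least 100 on an array.

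Rnf41 had the lowest log2 ratio of the 14 genes that reached 500, and among probe sets with at least 100 on an array its own differed most of the listed genes. The probe set used gave 841 and 596 (-0.50) and another gave 171 and 129 (-0.41), whereas a further one gave 171 and 225 (0.39). No single direction can be given for Rnf41 from these arrays. Dgka, which encodes a diacylglycerol kinase, had 251 and 224 (-0.17). Spryd4, a gene of a SPRY domain protein, had 406 and 459 (0.17), and Ankrd52, which encodes a regulatory subunit of protein phosphatase 6, was under 100 on both arrays (53.4 and 55.6).

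Of the 9 listed genes with several probe sets of at least 100, 5 had log2 ratios on both sides of 0. These were Cnpy2, Cs, Rbms2, Rnf41 and Sarnp. The range between the probe sets of 1 gene had a median of 0.40 for these 9 genes and 0.44 for 4479 genes of the arrays. The ratios of most listed genes were thus no larger than the distance between probe sets of the same gene. All 5 probe sets of Pa2g4 were on the lower side, 4 of them with at least 100 on an array. The rest of the 9 listed genes, Baz2a, Dnajc14, Naca and Prim1, also kept to a single side of 0.

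**Figure D4:**
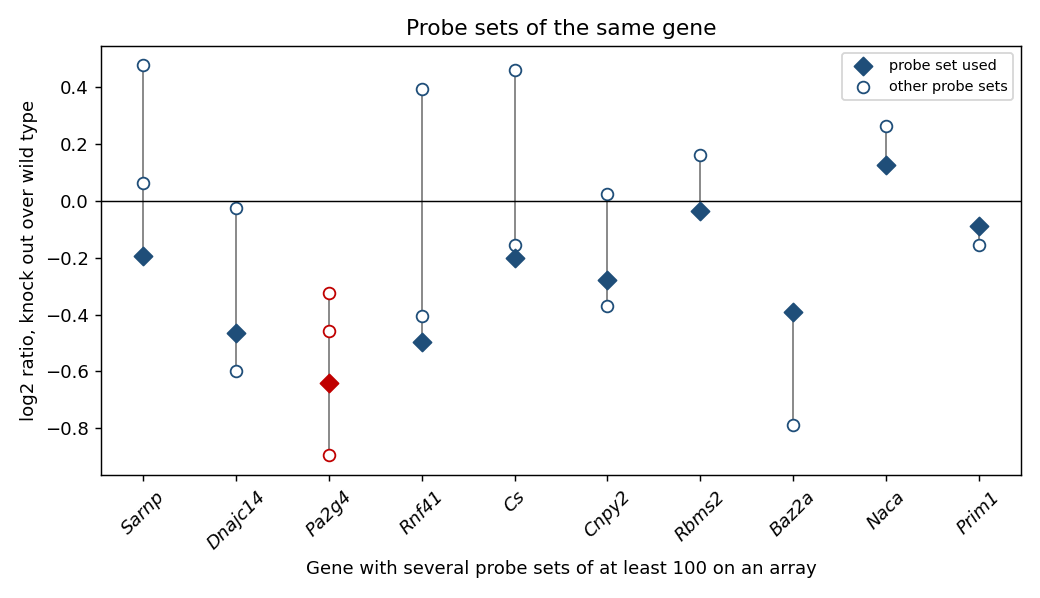
Log2 ratios of each probe set with at least 100 on an array, for the 9 listed genes with several such probe sets and for Pa2g4 (red). Filled diamonds mark the probe set used for the gene, open circles the others, and grey lines join the probe sets of a gene. Sarnp, Rnf41, Cs, Cnpy2 and Rbms2 lie on both sides of 0, and Pa2g4 below it throughout.

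Genes of secreted proteins and of single tissues were at or near background in these fibroblasts. None of the 9 reached 500 and 3 reached 100. Pmel, which encodes the fibril protein of melanosomes, had 62.4 in wild type MEFs and 110.2 in the knock out (0.82), at least 1.10-fold higher when the lower signal is set to 100. The melanocyte markers Tyr, Dct, Mlana and Mitf were all under 100 on both arrays, with summed signals of 210.2 and 221. Gdf11, which encodes a ligand of the TGF-beta family, had 106 and 121 (0.20), and Rdh5, the gene of a retinol dehydrogenase, had 115 and 85.0 (-0.44). All 3 genes thus lay close to the lower limit of usable signal.

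The lens water channel gene Mip (19.6 and 2.71), the interleukin 23 subunit gene Il23a (2.15 and 9.62) and the apolipoprotein gene Apof (2.72 and 9.87) gave the widest log2 ratios of all listed genes, from -2.85 to 2.16. No fold is given for them, since both arrays were far under 100, where log2 ratios of all genes had a standard deviation of 1.05. The second probe set of Mip pointed the other way (2.08 and 4.79). Slc39a5, which encodes a zinc transporter, and Hsd17b6, which encodes a steroid dehydrogenase, were also under 100 on both arrays. The protease gene Mmp19 had 83.2 and 94.5, and 29.8 and 87.6 on its other probe set, so it stayed under 100 as well.

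The median base composition of promoter windows differed between listed genes with usable and with low signals, though single genes overlapped. The number of CG dinucleotides from 250 bases before to 50 after the start had a median of 18 for the 14 listed genes that reached 500 and 15 for 11 genes from 100 to 500. It was 3 for the 5 genes under 100 on both arrays that had a window, and 7 over 27025 genes. Exceptions ran in both directions. Rbms2 reached 500 with 2 CG dinucleotides, while Ankrd52 was under 100 with 48 and Myl6b with 20. Among genes from 100 to 500, Nabp2, Coq10a, Timeless, Dgka and Rdh5 had only 4 to 6.

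Some probe sets could not be assigned to 1 gene. There were 6 that are annotated to 1 of the listed genes together with another gene or a pseudogene, and they involve Bloc1s1, Myl6, Ormdl2, Ptges3 and Rdh5. All of them reached 500 on an array, and their log2 ratios ran from -0.29 to 0.40, none over 1.5-fold. They do not show how much of a signal comes from which gene. Bloc1s1, which encodes a subunit of a complex for lysosome-related organelles, Ormdl2, which encodes a regulator of sphingolipid synthesis, and Ptges3, the gene of the Hsp90 co-chaperone p23, have values in no other form here. Cd63, the gene of a tetraspanin of endosomes, and Gls2 are named by no probe set.

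Genes whose products work together with those of the listed genes, but which lie on other chromosomes, were set beside them. Of 38 such partner genes 34 were measured and 26 reached 500, with log2 ratios from -0.87 to 0.52, a median of 0.09, 11 lower and 15 higher. Their median size without the sign was 0.21, beside 0.20 for the listed genes. None was over 2-fold apart and 2 of the 26 were over 1.5-fold apart, both lower, a share near the 8.1% of all genes. These were Prim2, which encodes the primase subunit that pairs with Prim1 (648 and 355, -0.87), and Ccne1, the gene of Cyclin E1, which activates Cdk2 (1533 and 982, -0.64). Their partners Prim1 and Cdk2 in the stretch around Pa2g4 differed by -0.09 and -0.13 on the log2 scale. Tipin, the partner gene of Timeless, had 809 and 935 (0.21), opposite in direction to Timeless on the deposited scaling. Spike-in scaling, which subtracts 0.39 from every log2 ratio, puts Tipin on the lower side too, and lowers the other partner genes alike. On the deposited scaling the direction of a listed gene and of its partner elsewhere was therefore not always shared.

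On the rest of chromosome 10, 249 genes reached 500, of which 2 were over 2-fold higher and 4 over 2-fold lower. These shares lie near those of all genes (0.758% and 1.06%), so the count of 0 among the 14 listed genes does not set the stretch apart from the chromosome. The nearest in gene order was Glipr1, 144 places from Pa2g4, and the others were Phlda1, Lum, Dcn, Igf1 and Lama4. Across the 20 chromosomes examined the median log2 ratio of genes that reached 500 ran from -0.09 to 0.00, and that of chromosome 10 was -0.03.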

How the data were processed

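Total RNA of 2 cultures was hybridized to 1 array per genotype. The authors deposited 1 signal intensity per probe set, made with MAS5 and scaled to a common target intensity. The detection calls and change p-values are not used here. Of 45037 probe sets without controls, 34945 had 1 gene symbol, 932 several and 9160 none here. Platform annotation supplied the symbols, RefSeq (GRCm38.p6) gene order and promoter windows.

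For each gene the probe set of highest mean log2 signal represented it, and knock out signals were divided by wild type signals on the log2 scale. A signal under 100 was low, and calls needed 500 on at least 1 array and over 2-fold. All 40 listed genes are named, and further genes by place, partnership or marker list. The genes and lists were chosen with earlier results of these data known. No test was possible. Precision is limited by the number of arrays, and 57.9% and 57.1% of probe sets were under 100. The steps were tested on simulated data. Alternatives covered scaling, low signals, minimum, threshold and probe set choice. Software was pandas 2.3.3 and numpy 2.4.6 under Python 3.11.15, with matplotlib 3.10.9, and statsmodels 0.14.6 for loess at fraction 0.3.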

Additional observations from a re-analysis of the deposited data

How the results depend on the processing

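The count of 0 listed genes over 2-fold apart was also 0 under each of the 4 other scalings, with signals raised to 100, with 50 added, without the suffixes _x_at and _s_at, with a minimum of 100 or with 500 on both arrays, and at thresholds of 1.5 and 3. Averaging a gene's probe sets gave 1, through Cdk2 (1.45), whose second probe set was at 0.167 and 1.37. Dropping the minimum gave 4 (Apof, Il23a, Mip and Myl6b, all under 100 on both arrays). With spike-ins Timeless, which did not reach 500, was at -1.14. Baz2a, Cnpy2, Cs, Dnajc14, Esyt1, Rnf41 and Smarcc2 were then over 1.5-fold lower, beside a median of all genes of -0.46. After median centring Rnf41 was over 1.5-fold lower (-0.60). The median log2 ratio of -0.20 was -0.30 after median centring, -0.59 after spike-in scaling, -0.044 with the mean over probe sets and -0.087 with no minimum. Scaling to the spike-ins and median centring lower each log2 ratio by a constant, and for the mean over probe sets the cause was not tested. The median of the listed genes minus that of all genes stayed between -0.17 and -0.08 over the 8 alternatives of scaling, low signals and probe set. Pa2g4 was lower in all of these, from -1.03 to -0.62. Of 280 single log2 ratios under these alternatives 19 changed sign and 13 moved by over 1.5-fold, of which 13 and 2 belong to genes with at least 100 on an array. With spike-ins Atp5b, Gdf11, Myl6, Naca, Spryd4 and Zc3h10 turned lower, and with median centring Zc3h10 did (-0.044). With averaged probe sets Cdk2, Coq10a, Cs, Rbms2 and Sarnp turned higher, as did Cnpy2 without the suffixes. No paired analysis was possible because each genotype had a single array.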

Other observations

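Beyond Hsd17b6 the chromosome continues with another dense run of genes, described here although it was chosen after its values were seen. Of the next 40 annotated protein-coding genes 39 were measured and 14 reached 500. Of these, 10 were lower and 4 higher in knock out MEFs (71.4% lower, against 57.8% of all genes that reached 500). The log2 ratios of the 14 ran from -0.47 to 0.49 with a median of -0.11. None of the 14 was over 1.5-fold apart, where 8.1% of all genes were, and a count of 0 among 14 lies near that share.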
